A study of Mus musculus with 12 samples.

Results

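The MHC class I and immunoproteasome genes are the mouse genes that make, load and regulate the class I peptide receptor. They were taken by symbol: the heavy chains *H2-K1* and *H2-D1*, their light chain *B2m*, the peptide transporter genes *Tap1* and *Tap2*, the loading chaperone *Tapbp*, the induced proteasome subunits *Psmb8*, *Psmb9* and *Psmb10*, and the transactivator *Nlrc5*. All 10 were found among the 46731 genes of the table. RNA was sequenced from 12 cultures of ATDC5, a chondrogenic mouse line derived from a teratocarcinoma, in 4 groups of 3 libraries. Each line was a stable lentiviral line and not a knockout. The shRNA-NC line, labelled wildtype, carried a control hairpin and the shRNA-Ddx5 line a hairpin against *Ddx5*, an RNA helicase gene. Cells of each line were collected at 6 h, either unstimulated (medium) or with 5 ng/ml IL-1β plus 25 ng/ml TNF-α (cytokines). Each hairpin is represented by a single line here, so an effect of the *Ddx5* hairpin and any other difference between the lines cannot be told apart.

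Class I molecules carry peptides from inside the cell to its surface, where CD8+ T cells read them. The proteasome cuts the peptides, the TAP transporter moves them into the endoplasmic reticulum, and tapasin, the product of *Tapbp*, holds the empty heavy chain and β2-microglobulin at the transporter until a peptide fits. Interferons and NF-κB-activating cytokines such as TNF-α are known to raise these genes, and NLRC5 acts at an SXY module in class I promoters. The induced subunits take the place of standard ones in the immunoproteasome: PSMB8 replaces PSMB5, PSMB9 replaces PSMB6 and PSMB10 replaces PSMB7.

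Of the 10 genes, 7 lay in the MHC on chromosome 17, within 1348 kb from *Tapbp* through *H2-K1*, *Psmb9*, *Tap1*, *Psmb8* and *Tap2* to *H2-D1* (GRCm39, the build of the coordinates in the table). *Psmb9*, *Tap1*, *Psmb8* and *Tap2* lay in 34.3 kb. *B2m* was on chromosome 2, and *Psmb10* and *Nlrc5* were on chromosome 8. Promoter windows of RefSeq (GRCm38.p6) from 250 bases before to 50 after the start held 8 of the 10 genes, without *Tap2* and *Nlrc5*. Each whole window matched GRCm39 at 1 place on the chromosome of its gene, and other chromosomes were not searched. Motifs were searched on both strands over the whole window. GAAANNGAA, the core of the interferon-stimulated response element, was in 8.56% of all 32851 promoters, and TTCNNNGAA, the gamma-activated site, in 8.3%. GGNNNTTCC, an NF-κB site, was in 18.5%, and TGACGC, the X2 part of the SXY module, in 7.4%. The 3 promoters below are shown because they held these letters, in capitals, for the receptor's own chains, and the last sequence because it is the whole stretch between *Psmb9* and *Tap1*, which are read in opposite directions from it.
B2m promoter, plus strand, chr2:121977918-121978167: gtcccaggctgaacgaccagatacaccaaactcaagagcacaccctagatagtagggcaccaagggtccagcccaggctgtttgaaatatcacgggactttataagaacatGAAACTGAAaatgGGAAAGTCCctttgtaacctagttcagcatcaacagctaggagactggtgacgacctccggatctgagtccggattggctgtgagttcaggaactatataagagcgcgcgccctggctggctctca
H2-K1 promoter, minus strand, chr17:34219322-34219571: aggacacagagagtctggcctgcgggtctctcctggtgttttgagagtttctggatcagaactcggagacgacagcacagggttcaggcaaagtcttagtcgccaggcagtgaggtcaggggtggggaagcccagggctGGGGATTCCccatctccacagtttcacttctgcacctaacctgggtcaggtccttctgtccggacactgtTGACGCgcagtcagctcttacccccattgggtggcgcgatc
H2-D1 promoter, plus strand, chr17:35481820-35482069: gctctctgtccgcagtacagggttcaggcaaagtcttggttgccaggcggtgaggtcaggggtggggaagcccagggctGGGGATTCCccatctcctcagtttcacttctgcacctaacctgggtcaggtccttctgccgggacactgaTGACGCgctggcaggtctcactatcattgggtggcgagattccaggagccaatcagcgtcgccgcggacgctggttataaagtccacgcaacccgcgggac
Psmb9 to Tap1, plus strand, chr17:34406305-34406529: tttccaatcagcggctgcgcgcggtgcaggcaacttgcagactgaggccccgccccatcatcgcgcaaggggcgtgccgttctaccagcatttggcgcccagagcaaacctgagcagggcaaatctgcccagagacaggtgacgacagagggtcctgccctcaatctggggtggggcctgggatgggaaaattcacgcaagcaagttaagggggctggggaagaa

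The capitals in the *B2m* promoter mark GAAACTGAA at -139 to -131 from the start, and GGACTTTCC on the other strand at -126 to -118. The *H2-K1* and *H2-D1* promoters held the same GGGGATTCC, at -111 to -103 and at -171 to -163, and TGACGC at -41 to -36 and at -101 to -96. RefSeq has another *H2-K1* start nearby, from which these letters lie at -125 to -117 and -55 to -50. Of the other windows, that of *Psmb8* held TTCCCAGAA at -97 to -89. The windows of *Tapbp*, *Psmb10*, *Psmb9* and *Tap1*, and the 225 bases between the last pair, held none of the 4 motifs. A match is a description of letters and not a site shown to be bound. The lack of a match means only that these exact letters were absent. Variant forms of these elements were not searched, so a promoter without a match cannot be said to lack the element.

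The libraries held 14119199 to 19276520 fragments on genes. Expression is given as FPKM, fragments scaled by gene length and library, so that levels can be compared between genes. In medium, *Ddx5* was at 319 ± 22.3 (SD, n = 3) in control and 103 ± 13.9 FPKM in shRNA-Ddx5 cells, and at 310 ± 14.9 and 99.5 ± 5.27 with cytokines. Of the chondrocyte markers, *Sox9* (27.5 FPKM in shRNA-NC in medium) and *Col2a1* (12.4) were present and the other 4 of 6 stayed below 0.2 on average in every group. The 6 summed to 37.0 to 42.4 FPKM in shRNA-NC and 23.7 to 27.8 in shRNA-Ddx5 libraries in medium. With cytokines they summed to 12.1 to 17.3 and 5.99 to 6.84. In shRNA-Ddx5, *Col2a1* was at 0.850 to 0.952 FPKM in medium and *Sox9* at 5.08 to 5.85 with cytokines. Of 12 markers of leukocytes, macrophages, T, B and dendritic cells, *Ptprc*, *Cd52* and *Cd3e* were at 0 in all 12 libraries. The sum of the 12 was 1.32 to 1.83 FPKM in shRNA-NC and 2.03 to 2.95 in shRNA-Ddx5 libraries in medium, and 1.61 to 2.29 and 2.11 to 2.67 with cytokines. Without *Cd68*, which was not higher in shRNA-Ddx5 in either medium (1.42 and 1.10 FPKM in medium), the other 11 summed to 0.0905 to 0.291 and 1.14 to 1.66 in medium and to 0.0155 to 0.197 and 0.606 to 1.21 with cytokines. The macrophage markers *Lyz2* (0.0518 and 0.934 FPKM in medium) and *Csf1r* (0.0887 and 0.381) made up most of this difference. The 4 fibroblast markers summed to 515 to 528 and 1790 to 1890 FPKM in medium, and to 241 to 390 and 1296 to 1517 with cytokines, almost all of it collagen I. The part of these marker shifts in the class I values was not tested. Fewer cells with a transcript and less of it per cell cannot be told apart in these bulk samples.

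Tests were made by limma on log2(FPKM + 1) over the 12368 genes with at least 1 FPKM in at least 3 libraries, with Benjamini-Hochberg adjustment over all of them and a threshold of 0.05. Of the 10 genes 8 were tested, and *Psmb8* and *Nlrc5* were under the filter. Fold changes named log2 are on this scale, which understates low genes, and folds without log2 are ratios of mean FPKM. Each ± after FPKM is an SD of 3 libraries.

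The heavy chain genes were lower in unstimulated shRNA-Ddx5 cells than in shRNA-NC cells and rose severalfold with cytokines in both lines. *H2-K1*, which encodes a classical heavy chain, was at 18.3, 16.3 and 15.9 FPKM in the unstimulated shRNA-NC libraries and at 11.2, 8.60 and 10.2 in the shRNA-Ddx5 libraries. With cytokines it was at 104, 99.6 and 115 FPKM in shRNA-NC and 96.4, 96.4 and 91.2 in shRNA-Ddx5. The lines did not overlap in medium or with cytokines, and the gap was much wider, relative to the level, in medium. The knockdown difference was -0.70 (log2, SE 0.10, limma adjusted p = 1.8e-04) in medium and -0.16 (SE 0.10, limma adjusted p = 0.201) with cytokines, where quantile normalization gave -0.33 (limma adjusted p = 0.0159). Cytokines raised *H2-K1* 6.31-fold in shRNA-NC and 9.48-fold in shRNA-Ddx5 (log2 2.59 and 3.13, limma adjusted p = 9.8e-09 and 1.4e-09).

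*H2-D1*, the other classical heavy chain gene, was the more abundant of the pair in every library. It was at 93.6, 84.3 and 71.8 FPKM in shRNA-NC and 65.3, 47.2 and 51.8 in shRNA-Ddx5 in medium. The cytokine libraries were at 232, 242 and 291 FPKM in shRNA-NC and 194, 205 and 191 in shRNA-Ddx5. Every shRNA-Ddx5 library lay below every shRNA-NC library of the same medium. The difference was -0.60 (log2, SE 0.14, limma adjusted p = 0.0038) in medium and -0.36 (SE 0.14, limma adjusted p = 0.0459) with cytokines. The second call was lost when any shRNA-Ddx5 cytokine library was left out, or shRNA-NC cytokine replicate 2 or 3, shRNA-NC medium replicate 2 or shRNA-Ddx5 medium replicate 3 (limma adjusted p 0.0603 to 0.166). Cytokines raised *H2-D1* 3.06-fold in shRNA-NC and 3.596-fold in shRNA-Ddx5 (log2 1.60 and 1.84, limma adjusted p = 6.4e-06 and 1.4e-06). Of the 150-base stretches of its transcript, 1.77% were shared exactly with *H2-Q1*, and none of those of *H2-K1* were shared with another gene.

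*B2m*, the light chain gene and the most abundant of the 10 in every group, moved in the opposite direction to the heavy chains in medium. It was at 181, 193 and 136 FPKM in shRNA-NC and 255, 255 and 276 in shRNA-Ddx5 in medium. With cytokines it was at 475, 287 and 294 FPKM in shRNA-NC and 330, 346 and 363 in shRNA-Ddx5. In medium the lines did not overlap, and with cytokines they did, with shRNA-NC replicate 1 far above the others. *B2m* was higher after knockdown in medium by 0.64 (log2, SE 0.18, limma adjusted p = 0.0141), or 0.49 (limma adjusted p = 0.0505) without shRNA-NC medium replicate 3. Quantile normalization gave 0.33 (limma adjusted p = 0.167), while scaling to the sum of fragments on genes kept the call. It thus depended on which scaling between libraries was used. Cytokines raised *B2m* by 1.02 (SE 0.18, limma adjusted p = 0.0015) in shRNA-NC. In shRNA-Ddx5 the difference was 0.40 (SE 0.18, limma adjusted p = 0.132), and it passed (limma adjusted p = 0.0287) when shRNA-NC cytokine replicate 1 was left out. It also passed with only the 6 libraries of that contrast (limma adjusted p = 0.0083), and these did not overlap between medium and cytokines.

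**Figure D1:**
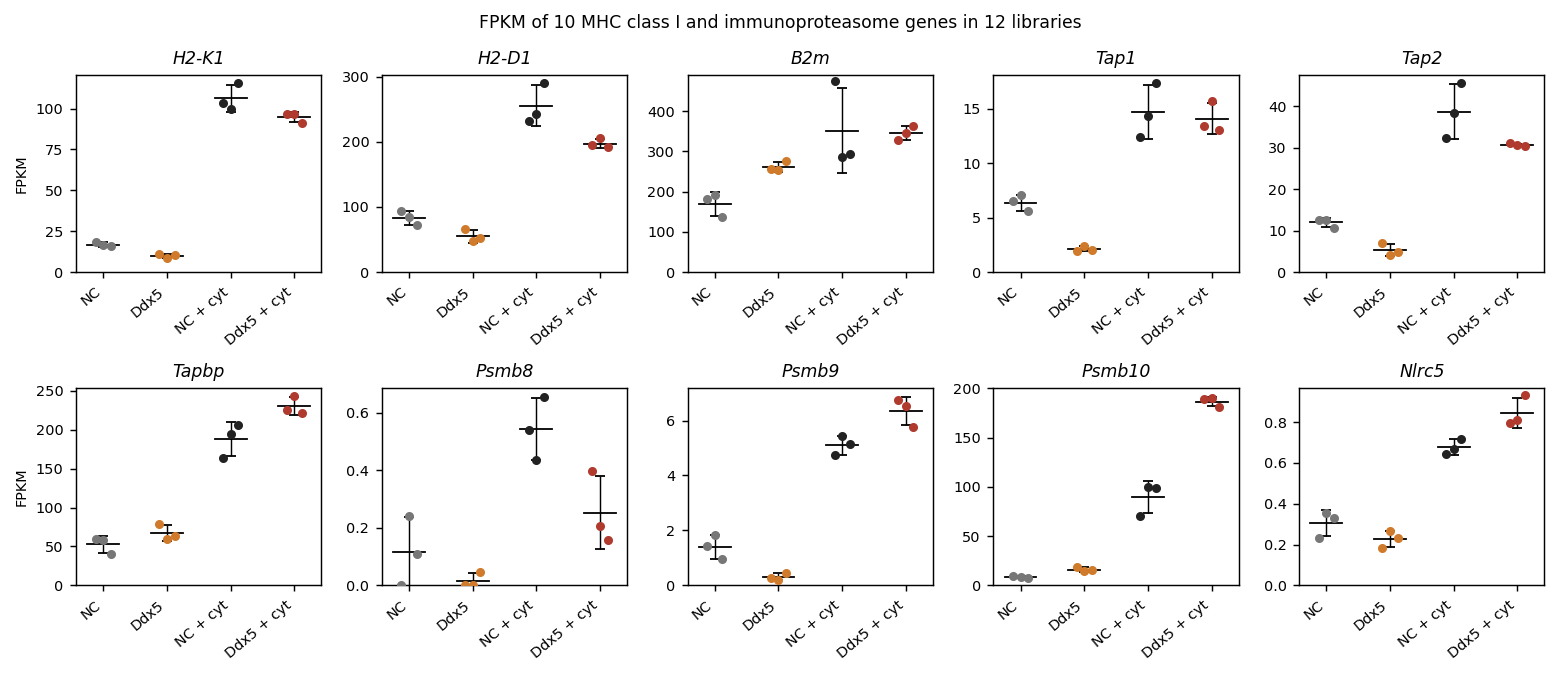
FPKM (linear axes from 0, a separate axis for each gene) of the 10 genes in the 12 libraries: NC and Ddx5 are the shRNA lines in medium, and + cyt is with cytokines. Points are libraries, horizontal lines means and bars SD (n = 3). *Tap1*, *Tap2* and *Psmb9* fall between the first and the second column. In the last columns the lines overlap for *Tap1*, while the Ddx5 line is lower for *Tap2* and higher for *Psmb9*. *Psmb10* is higher in the Ddx5 line in both media.

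The TAP transporter genes were lower in shRNA-Ddx5 cells in medium, as the heavy chain genes were, and rose with cytokines in both lines. *Tap1*, one of its subunit genes, was at 6.50, 7.05 and 5.59 FPKM in shRNA-NC and 1.96, 2.40 and 2.07 in shRNA-Ddx5 in medium, 33.6% of the control. The levels with cytokines were 12.4, 14.3 and 17.4 FPKM in shRNA-NC and 13.4, 15.7 and 13.1 in shRNA-Ddx5. The lines were far apart in medium and overlapped with cytokines. The knockdown difference was -1.23 (log2, SE 0.12, limma adjusted p = 2.1e-05) in medium and -0.05 (95% confidence interval -0.32 to 0.22) with cytokines. Cytokines raised *Tap1* 2.30-fold in shRNA-NC and 6.57-fold in shRNA-Ddx5 (log2 1.08 and 2.26, limma adjusted p = 7.0e-05 and 1.3e-07).

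*Tap2*, the gene of the partner subunit, was at 12.6, 12.7 and 10.6 FPKM in shRNA-NC and 7.01, 4.05 and 4.90 in shRNA-Ddx5 in medium. With cytokines it was at 32.2, 38.3 and 45.5 FPKM in shRNA-NC and 31.0, 30.5 and 30.4 in shRNA-Ddx5. The shRNA-Ddx5 libraries lay below the shRNA-NC libraries in both media. The difference was -1.06 (log2, SE 0.16, limma adjusted p = 3.2e-04) in medium and -0.31 (SE 0.16, limma adjusted p = 0.135) with cytokines. *Tap2* rose 3.23-fold with cytokines in shRNA-NC and 5.76-fold in shRNA-Ddx5 (log2 1.60 and 2.35, limma adjusted p = 2.5e-05 and 7.7e-07).

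*Tapbp*, which encodes tapasin, did not share the lower level in medium. It was at 59.7, 57.9 and 40.4 FPKM in shRNA-NC and 79.1, 59.3 and 63.6 in shRNA-Ddx5 in medium, with overlapping lines. Cytokine-treated cells were at 164, 195 and 207 FPKM in shRNA-NC and 225, 244 and 222 in shRNA-Ddx5. The knockdown difference was 0.36 (log2, SE 0.16, limma adjusted p = 0.0799) in medium, and 0.46 (limma adjusted p = 0.0497) without shRNA-NC medium replicate 1. With cytokines it was 0.30 (SE 0.16, limma adjusted p = 0.143). Cytokines raised *Tapbp* 3.58-fold in shRNA-NC and 3.42-fold in shRNA-Ddx5 (log2 1.83 and 1.77, limma adjusted p = 6.6e-06 and 6.4e-06).

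The induced proteasome subunit genes did not move alike with the knockdown. *Psmb9*, separated from *Tap1* by the 225 bases shown above, was at 1.44, 1.82 and 0.959 FPKM in shRNA-NC and 0.274, 0.200 and 0.450 in shRNA-Ddx5 in medium. With cytokines it was at 4.75, 5.43 and 5.13 FPKM in shRNA-NC and 6.76, 6.51 and 5.78 in shRNA-Ddx5. It was thus lower after knockdown in medium in every library, while with cytokines every shRNA-Ddx5 library lay above the shRNA-NC libraries. The difference was -0.87 (log2, SE 0.13, limma adjusted p = 3.0e-04) in medium and 0.27 (SE 0.13, limma adjusted p = 0.117) with cytokines. The medium values rest on 16 to 41 fragments per library in shRNA-NC and 4 to 9 in shRNA-Ddx5, and on fragments (voom) the medium difference was -2.16 (limma adjusted p = 7.0e-04). Cytokines raised *Psmb9* by 1.36 in shRNA-NC and 2.49 in shRNA-Ddx5 (log2, SE 0.13, limma adjusted p = 1.8e-05 and 8.5e-08), and by 1.85 and 4.32 on fragments. Only with the cytokine libraries did *Psmb9* reach 1 FPKM in 3 libraries, so this rise was favoured by the filter.

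*Psmb10*, on chromosome 8, had the largest cytokine response of the 8 genes tested on the log2 scale in either line and was higher after knockdown in both media. By the ratio of mean FPKM, and on fragments, *Psmb9* exceeded it in shRNA-Ddx5 (20.6-fold). It was at 9.44, 8.11 and 7.02 FPKM in shRNA-NC and 18.4, 14.5 and 15.2 in shRNA-Ddx5 in medium. With IL-1β plus TNF-α it was at 70.9, 100.2 and 98.7 FPKM in shRNA-NC and 189, 190 and 181 in shRNA-Ddx5. Each shRNA-Ddx5 library was above each shRNA-NC library of the same medium, by 1.96-fold of the mean in medium and 2.08-fold with cytokines. These differences were 0.89 (log2, SE 0.14, limma adjusted p = 4.4e-04) and 1.06 (SE 0.14, limma adjusted p = 1.3e-04). Cytokines raised *Psmb10* 10.98-fold in shRNA-NC and 11.6-fold in shRNA-Ddx5 (log2 3.30 and 3.47, limma adjusted p = 2.5e-08 and 1.4e-08).

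*Psmb8* and *Nlrc5* were both below 1 FPKM in every library, and *Psmb8* was near the limit of detection. *Psmb8*, which lies between *Tap1* and *Tap2*, had 8 fragments over the 3 shRNA-NC and 1 over the 3 shRNA-Ddx5 libraries in medium. With cytokines it had 36 and 15, or 0.543 ± 0.108 and 0.252 ± 0.127 FPKM. It therefore stayed below 1 FPKM in every library, although both neighbours were induced. *Nlrc5* was at 0.233, 0.355 and 0.328 FPKM in shRNA-NC and 0.184, 0.266 and 0.231 in shRNA-Ddx5 in medium, and at 0.643, 0.668 and 0.719 and 0.795, 0.810 and 0.931 with cytokines, from 24 to 116 fragments per library. Without the filter, *Nlrc5* was higher with cytokines by 0.36 (log2, SE 0.05, limma adjusted p = 0.0018) in shRNA-NC and 0.59 (SE 0.05, limma adjusted p = 6.1e-05) in shRNA-Ddx5. *Psmb8* without the filter was higher with cytokines in shRNA-NC (0.47, limma adjusted p = 0.0066). In shRNA-Ddx5 it missed the threshold on the log2 scale (0.30, limma adjusted p = 0.0587) and passed on fragments by voom (2.97, limma adjusted p = 0.0085). Its lower level after knockdown with cytokines passed on the log2 scale (-0.30, limma adjusted p = 0.0374) but not on fragments (limma adjusted p = 0.263).

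Counted together, cytokines raised all 8 genes tested in shRNA-NC and 7 of 8 in shRNA-Ddx5, without *B2m*, and lowered none. Among them, *Psmb9* passed the filter only through libraries with cytokines, so its place in these counts was favoured by the filter. *B2m* passed in shRNA-Ddx5 with only the 6 libraries of that contrast (limma adjusted p = 0.0083). Of all 12368 genes, 18.6% were higher and 15.2% lower with cytokines in shRNA-NC, and 13.5% were higher and 13.5% lower in shRNA-Ddx5. The median log2 change of the 8 genes was 1.60 in shRNA-NC and 2.31 in shRNA-Ddx5, against 0.02 and 0.00 over all genes. Knockdown in medium lowered 5 (*H2-K1*, *H2-D1*, *Tap1*, *Tap2* and *Psmb9*) and raised 2 (*B2m* and *Psmb10*), with a median of -0.65 against 0.03 over all genes. The background was 21.7% lower and 25.3% higher. With cytokines, knockdown lowered 1 (*H2-D1*) and raised 1 (*Psmb10*), against a background of 22.1% lower and 23.5% higher, so these counts are no larger than those of all genes.

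**Figure D2:**
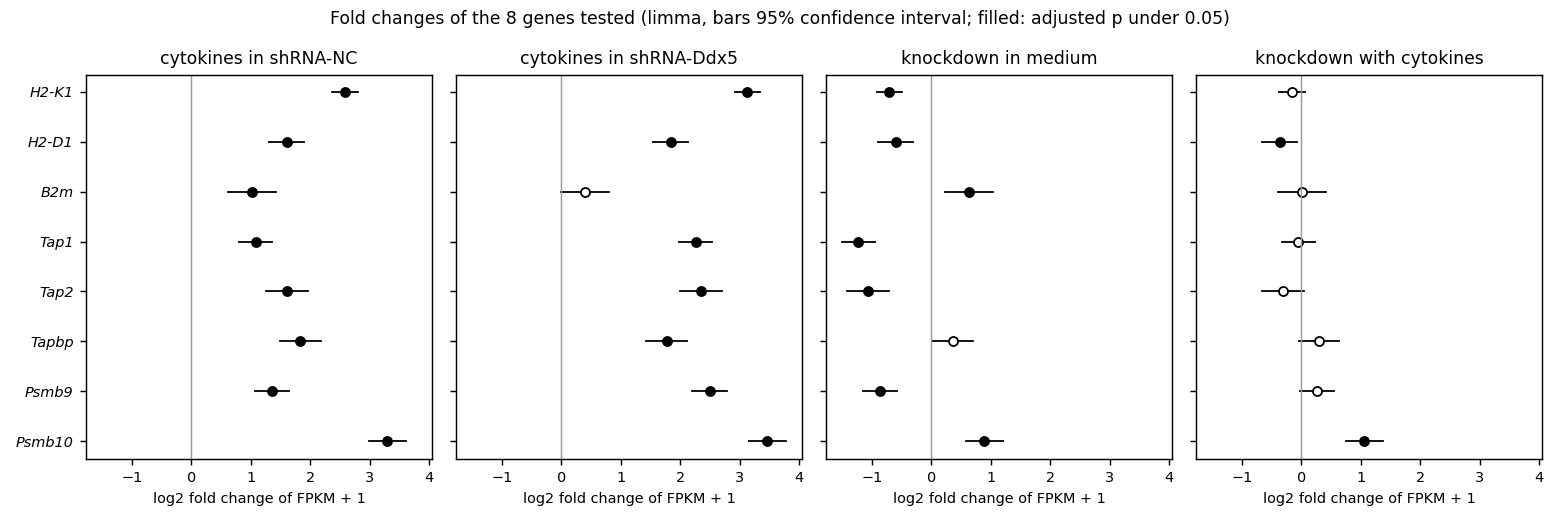
Differences in log2(FPKM + 1) of the 8 genes tested by limma, for cytokines against medium in each line and for shRNA-Ddx5 against shRNA-NC in each medium. Points are estimates, bars 95% confidence intervals, and filled points passed an adjusted p of 0.05. All 8 points are filled for cytokines in shRNA-NC, 7 for knockdown in medium and 2 for knockdown with cytokines.

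The interaction, the log2 knockdown difference with cytokines minus that in medium, was positive for *Tap1* (1.18, SE 0.18, limma adjusted p = 0.0022), *Psmb9* (1.14, SE 0.18, limma adjusted p = 0.0037) and *H2-K1* (0.54, SE 0.14, limma adjusted p = 0.0361), and no gene of the 8 passed in the other direction. Over all genes 3.46% passed upward and 4.75% downward, and the median of the 8 was 0.39 against -0.01. The *Tap1* and *Psmb9* calls held in each of the 19 alternatives run. That of *H2-K1* was lost without any one of 9 libraries, the exceptions being shRNA-NC medium replicate 3, shRNA-Ddx5 medium replicate 1 and shRNA-NC cytokine replicate 3 (limma adjusted p up to 0.0909). *Tap2* (0.75, limma adjusted p = 0.0694) passed without shRNA-Ddx5 medium replicate 1 (limma adjusted p = 0.0138) or shRNA-NC cytokine replicate 3 (0.0499). *B2m* was at -0.62 (limma adjusted p = 0.174), and *Tapbp*, *H2-D1* and *Psmb10* were between -0.06 and 0.24.

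Relative to the standard subunit that each replaces, the induced subunits stayed minor transcripts except for *Psmb10*. Per 100 FPKM of *Psmb7*, *Psmb10* was at 4.79 in shRNA-NC and 7.50 in shRNA-Ddx5 in medium, and at 40.8 and 66.0 with cytokines. Per 100 FPKM of *Psmb6*, *Psmb9* was at 0.912 and 0.157 in medium and at 2.67 and 2.47 with cytokines. Per 100 FPKM of *Psmb5*, *Psmb8* reached 0.527 at most on average. The *Psmb9* to *Psmb6* ratio was 0.171 times the control after knockdown in medium and 0.925 times with cytokines. *Tap1* stood at 53.3 per 100 FPKM of *Tap2* in shRNA-NC and 43.2 in shRNA-Ddx5 in medium, and at 38.0 and 46.0 with cytokines, the shRNA-Ddx5 libraries in medium being widely spread. The *Psmb8* ratio was tested only for knockdown with cytokines, since *Psmb8* was at 0 in medium libraries of both lines. In 11 of the 13 comparisons of these ratios that were tested the groups did not overlap. This gives an exact two-sided permutation p of 0.1 (adjusted 0.118), the smallest that 3 against 3 allows, so no ratio could pass.

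**Figure D3:**
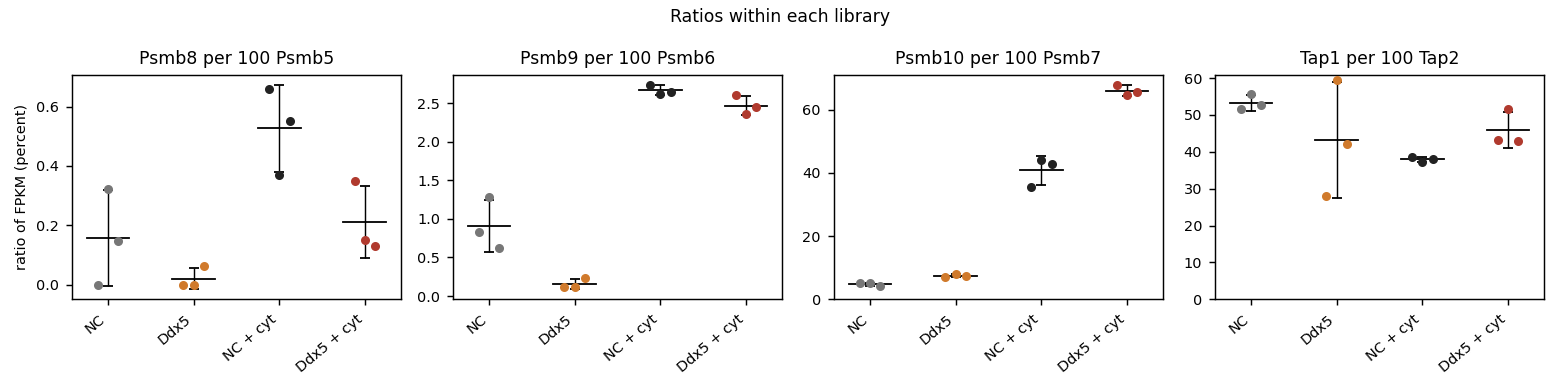
Ratios of FPKM within each library, in percent on linear axes, of *Psmb8* to *Psmb5*, *Psmb9* to *Psmb6*, *Psmb10* to *Psmb7* and *Tap1* to *Tap2*. Points are libraries, lines means and bars SD (n = 3). *Psmb10* reaches 66.0% of *Psmb7* in the Ddx5 line with cytokines, while *Psmb9* stays under 3% of *Psmb6* throughout.

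The order of the 10 genes by level was led by *B2m* and closed by *Nlrc5* and *Psmb8* in every group. The libraries of *B2m* and of *H2-D1* overlapped in shRNA-NC with cytokines. In shRNA-NC the second and the third place were held by *H2-D1* and *Tapbp*, in both media. In shRNA-Ddx5 this pair was the other way round, and their libraries overlapped in medium but not with cytokines. With cytokines *Psmb10* and *H2-K1* were neighbours in both lines, 89.9 and 106 FPKM in shRNA-NC, where 1 library of *Psmb10*, at 100.2, lay in the *H2-K1* range of 99.6 to 115. In shRNA-Ddx5 *Psmb10* was at 187 and *H2-K1* at 94.7, with no overlap.

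Other class I heavy chain genes were partly induced. Of 31 listed 8 were tested. Cytokines raised 5 and lowered 1 (*Mr1*) in shRNA-NC, and raised 6 and lowered 2 in shRNA-Ddx5. *H2-M2* and *H2-K2*, at most 0.855 FPKM in medium, passed the filter only through libraries with cytokines. Their rises with cytokines (*H2-M2* in both lines, *H2-K2* in shRNA-Ddx5) were therefore favoured by the filter. All genes gave 18.6% higher and 15.2% lower in shRNA-NC, and 13.5% each way in shRNA-Ddx5. *H2-Q4*, a non-classical heavy chain gene, was at 10.9 FPKM in shRNA-NC and 4.83 in shRNA-Ddx5 in medium, and at 36.0 and 60.5 with cytokines. Its knockdown difference was -1.02 in medium and 0.74 with cytokines (log2, limma adjusted p = 7.5e-05 and 6.2e-04), with an interaction of 1.76 (limma adjusted p = 2.4e-04). *H2-T22* was at 12.4 and 12.9 FPKM in medium and at 18.5 and 31.4 with cytokines (interaction 0.70, limma adjusted p = 0.03). *H2-T23* fell after knockdown in medium, from 1.94 to 0.737 FPKM, and was at 3.33 and 3.51 with cytokines. The interaction passed upward for 3 of the 8 (*H2-Q4*, *H2-T22* and *H2-M2*), against 3.46% of all genes. That of *H2-M2* (0.79) turned to -0.71 on fragments by voom (limma adjusted p = 0.669), with 1 and 7 fragments in total in the groups in medium.

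Of 7 other loading and trimming genes tested, knockdown raised 1 (*Sec61a1*) and lowered 1 (*Erap1*) in medium, and with cytokines it raised 1 and lowered 2. All genes gave 25.3% higher and 21.7% lower in medium and 23.5% and 22.1% with cytokines. Cytokines raised 4 in shRNA-NC and 2 in shRNA-Ddx5 (18.6% and 13.5% of all genes), *Tapbpl* and *Erap1* in both. *Tapbpl*, the tapasin-related gene, went from 2.68 to 21.4 FPKM in shRNA-NC and from 2.67 to 24.99 in shRNA-Ddx5. *Erap1*, whose enzyme trims peptides in the endoplasmic reticulum, was lower after knockdown in medium (5.36 to 3.38 FPKM) and with cytokines (16.7 to 10.96), with log2 differences of -0.53 and -0.56 (limma adjusted p = 0.0117 and 0.0091).

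The proteasome activator genes *Psme1* and *Psme2* had the direction of *Psmb10*. *Psme1*, an activator subunit gene, was at 38.9 FPKM in shRNA-NC and 56.3 in shRNA-Ddx5 in medium, and at 80.6 and 146 with cytokines. *Psme2*, its partner, was at 25.3 and 46.9, and at 112 and 175. Both were higher after knockdown in both media (limma adjusted p from 1.7e-04 to 0.0038) and rose with cytokines in both lines, as did the assembly chaperone gene *Pomp*. Of the 9 activator and assembly genes, knockdown raised 6 and lowered 1 (*Psme4*) in medium, and raised 5 and lowered 1 with cytokines. Of all genes, knockdown raised 25.3% and lowered 21.7% in medium, and raised 23.5% and lowered 22.1% with cytokines. Of the standard catalytic subunits *Psmb5*, *Psmb6* and *Psmb7*, none passed for knockdown in medium and 2 rose with cytokines (*Psmb6* by 0.42, *Psmb7* by 0.37, log2). Of the other 11 core subunit genes, knockdown raised 4 in medium and 1 with cytokines (*Psmb4*) and lowered none, beside the same 25.3% and 23.5% of all genes higher.

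Regulators known to act on class I genes rose with cytokines in both lines, 15 of 17 tested in each, against 18.6% of all genes in shRNA-NC and 13.5% in shRNA-Ddx5, and none fell. *Irf1*, an interferon regulatory factor, was at 8.04 FPKM in shRNA-NC and 9.26 in shRNA-Ddx5 in medium, and at 26.9 and 64.0 with cytokines. Its interaction was 1.05 (log2, limma adjusted p = 0.0049). *Stat2* was at 8.03 and 9.01 in medium and at 12.2 and 22.9 with cytokines (interaction 0.71, limma adjusted p = 0.0104). *Relb*, an NF-κB subunit gene, had the *Tap1* order in medium, 2.49 and 1.30 FPKM, and was at 10.2 and 13.1 with cytokines (interaction 0.94, limma adjusted p = 0.0059). *Ifng* was at 0 in all libraries, and *Ifnb1* was at 0 on average in 3 groups and 0.024 FPKM in shRNA-Ddx5 in medium. Of the 17, knockdown lowered 4 in medium (*Irf9*, *Ifnar1*, *Ifnar2* and *Relb*) and 1 with cytokines (*Ifnar1*), where all genes gave 21.7% and 22.1%. It raised 1 in medium and 5 with cytokines, where all genes gave 25.3% and 23.5%. The interaction passed upward for 5 of the 17 and downward for none, against 3.46% and 4.75% of all genes.

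**Figure D4:**
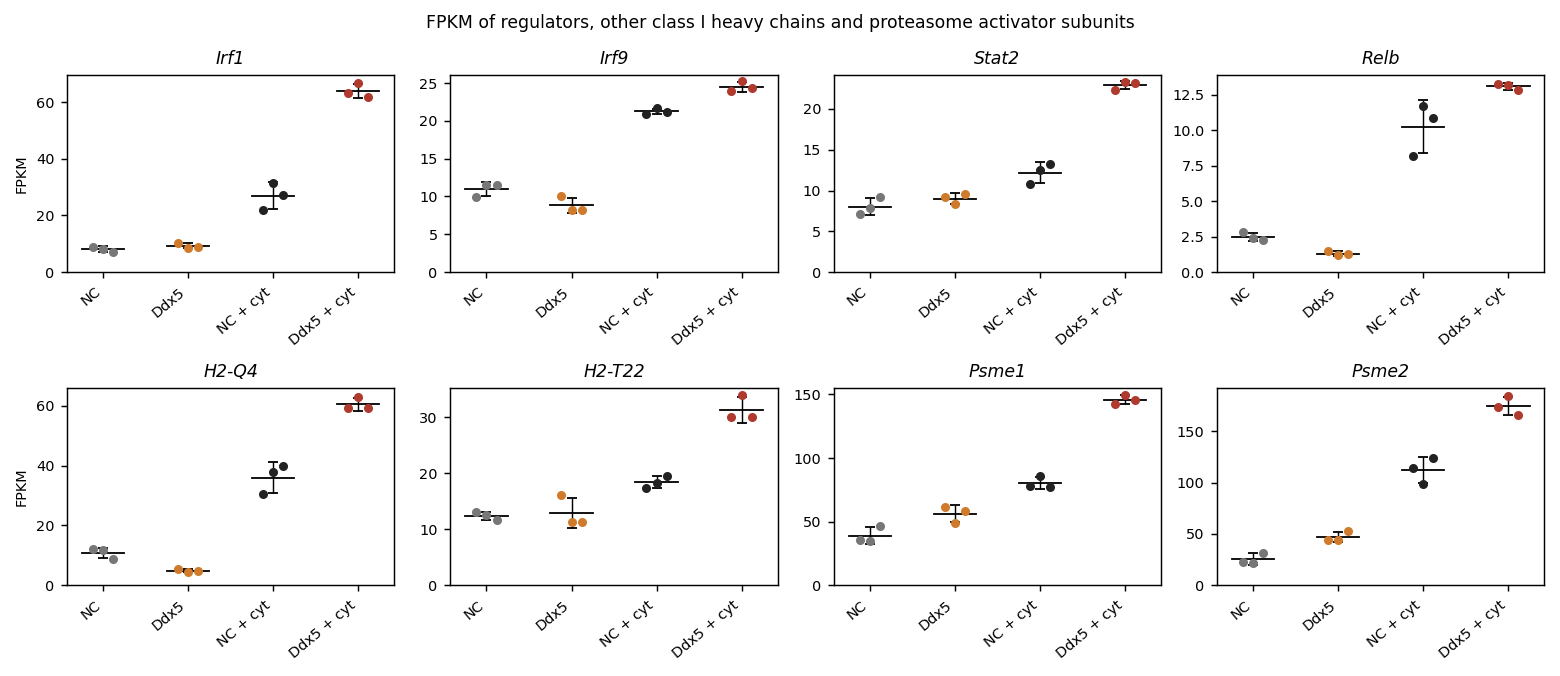
FPKM (linear axes from 0, a separate axis for each gene) of 4 regulators, 2 other class I heavy chain genes and 2 proteasome activator genes in the 12 libraries. Points are libraries, lines means and bars SD (n = 3). *Relb* and *H2-Q4* are lower in the Ddx5 line in medium and higher with cytokines, while *Psme1* and *Psme2* are higher in it in both media.

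Of the enhanceosome genes, whose products assemble on the SXY module, 8 of 8 were tested. Knockdown lowered 4 (*Atf1*, *Rfxap*, *Creb1* and *Rfx5*) and raised 1 (*Nfyc*) in medium, against 21.7% lower and 25.3% higher of all genes. With cytokines it lowered 2 and raised 1, against 22.1% and 23.5% of all genes. *Rfx5* was at 3.16 and 2.35 FPKM in medium and at 3.88 and 4.03 with cytokines (interaction 0.36, limma adjusted p = 0.0477). No other interaction of the 8 passed, and 3.46% of all genes passed upward.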

How the data were processed

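The values were made by the authors from paired 150 nt reads and deposited as FPKM, fragments per gene scaled by length and library, for all genes. Of the tools used by the authors, the processing notes of the submitters name HISAT2 2.0.5, featureCounts 1.5.0-p3, DESeq2 1.20.0 and the build mm10, while the coordinates of the table follow GRCm39. Strandedness is not given in the sources used here. FPKM times length gave whole fragments (100% of values within 0.1), at 14119199 to 19276520 per library, with denominators 0.957 to 1.08 times these sums. *B2m*, *H2-K1*, *Tapbp* and *Nlrc5* overlap genes on the other strand that had at most 303 fragments over all libraries.

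The unit set limma 3.58.1 in R 4.3.3 (lmFit, contrasts.fit, eBayes with trend) on log2(FPKM + 1) with 4 group means, in place of a count test, with Benjamini-Hochberg adjustment over 12368 genes. Ratios were tested by exact two-sided permutation (scipy 1.17.1). Figures used matplotlib 3.10.9 in Python 3.11.15. The libraries are separate cultures per the study. The 10 genes, the lists (other class I heavy chains, loading and trimming, standard and other core subunits, activator and assembly, enhanceosome, regulators, class II genes, cell type markers), the motifs and the rule for named genes (the 10, *Ddx5*, list genes, and the 10 most alike over the 12 libraries) were chosen with earlier results of these data known. Of the regulators, 1 gene is not reported here. On simulated data made for knockdown in medium with 12368 genes, 96 of 100 genes changed by 1 (log2) and 98 of 100 changed by 2 were recovered, and 6 unchanged genes were called. The changed genes were drawn from those near or above 1 FPKM on average, and the same spread between replicates was set for every gene. These shares are therefore not a sensitivity for the 10 genes. Alternatives were a pseudocount of 0.1, no filter, quantile normalization, scaling to the sum of fragments on genes, eBayes without trend, voom on fragments, only the 6 libraries of a contrast, a replicate block and each library left out.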

Additional observations from a re-analysis of the deposited data

Results flagged for a closer look

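The effect of the knockdown differed between medium and cytokines for 3 of the 8 genes tested. The interaction was 1.18 (log2) for *Tap1*, 1.14 for *Psmb9* and 0.54 for *H2-K1*, as tested by limma with Benjamini-Hochberg adjusted p-values of 0.0022, 0.0037 and 0.0361. The means went from 6.38 to 2.14 FPKM for *Tap1*, from 1.41 to 0.308 for *Psmb9* and from 16.8 to 9.99 for *H2-K1* in medium, and from 14.7 to 14.1, 5.10 to 6.35 and 106 to 94.7 with cytokines. For *H2-K1* the call was lost without any one of 9 libraries.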

How the results depend on the processing

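Under the alternatives, 798 values of the 10 genes were unchanged, 23 no longer passed and 9 newly passed. A further 10 changed sign, and 8 moved by more than the spread between replicates. Unchanged means the same direction and side of the threshold for the 8 genes tested. For *Psmb8* and *Nlrc5*, which were under the filter, it means the same direction and a shift within that spread, with no threshold. The count of these genes that passed for knockdown with cytokines, 2 as reported, was 4 with only the 6 libraries of that contrast, where *Tapbp* (limma adjusted p = 0.0451) and *Psmb9* (0.0403) passed, 1 with the replicate block, and from 1 to 2 with each library left out. The replicate block gave limma adjusted p-values of 0.0659 for *H2-D1* with cytokines and 0.0523 for the *H2-K1* interaction, and it changed no other call of the 8 genes. Of the calls in the gene lists other than markers, 19 of 146 were lost with the replicate block, among them the interactions of *Rfx5* (limma adjusted p = 0.103) and *H2-T22* (0.0568), *Creb1* for knockdown in medium (0.0592), and *Psmb7* (0.0508), *Psmb4* (0.0501) and *Ifnar1* (0.0648) for knockdown with cytokines, and 2 were gained. The *H2-K1* interaction was also lost with no filter (0.0556) and quantile normalization (0.0834), the *H2-D1* call with no filter (0.0914), and the *Tap2* interaction passed with voom (0.0369). The replicate numbers were not shown to pair the cultures, since like-numbered libraries had deviations correlated at -0.368, 0.123 and -0.29 for shRNA-NC and 0.448, 0.0425 and 0.313 for the medium groups. Values near 0 that did not pass changed sign for *B2m* knockdown with cytokines (0.02) under quantile normalization (-0.21) and scaling to the sum of fragments (-0.040), ranging from -0.11 to 0.25 with each library left out. So did *Tap1* knockdown with cytokines (-0.16 to 0.070 with each library left out), the *Tapbp* interaction (-0.16 to 0.11) and the *Psmb10* interaction under quantile normalization (-0.060). The *Tap1* to *Tap2* log2 ratio change with cytokines in shRNA-Ddx5 (0.15) was -0.090 as a ratio of FPKM + 1 and -0.13 to 0.42 with each library left out. Over all genes the interaction count of 1016 fell to 559 without shRNA-Ddx5 cytokine replicate 3. The cause was not tested. *Psmb8* is limited by depth, at 0 to 15 fragments per library. *Nlrc5* had 24 to 116 fragments per library, spread over a length of 7915 bases, and was under the filter by FPKM.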

Other observations

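Class II genes stayed low apart from *Cd74*, the invariant chain gene. *Cd74* was at 0.153 FPKM in shRNA-NC and 3.29 in shRNA-Ddx5 in medium, and at 3.07 and 34.6 with cytokines, while *Ciita* stayed below 0.1 on average in every group. *H2-Ab1* was lower after knockdown, at 3.47 and 0.659 FPKM in medium and 2.90 and 0.748 with cytokines. Of 7 listed genes 4 were tested.

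The genes whose log2(FPKM + 1) was most like the mean of the 8 tested genes over the 12 libraries were *Ttc39c* (Pearson r 0.996), *Nfkb2* (0.993), *Tapbpl* (0.993), *Rgs16* (0.992), *Gbp2b* (0.990), *Gbp3* (0.988), *Arid5a* (0.988), *Gdnf* (0.988) and 2 unnamed loci (0.990 and 0.988). These points share their libraries and the cytokine step, and r is a description.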
